A study of Mus musculus with 37 samples.

Results

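The cells described here are the smooth muscle-like cells of a reprogramming culture, defined by their counts of Myh11, Actg2, Cnn1 and Mylk. In each count table, the CPM of these 4 genes (a gene's counts divided by all counts of the cell, times 1000000) were summed per cell, and the 5% of cells with the highest sum were taken. This gave 428 members among 8563 cells. The rule is a cut through a continuous score and not a boundary between cell types, and the values of the 4 genes chose the members. They are therefore given for the members as a description, without a test.

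Smooth muscle cells shorten by sliding actin filaments past filaments of smooth muscle myosin. Contraction starts when calcium and calmodulin switch on myosin light chain kinase, which phosphorylates the regulatory light chain of myosin, and a phosphatase reverses this step. Actin and myosin filaments are held at dense bodies and at focal adhesions, which pass force to the matrix. Many of the genes involved are switched on by serum response factor (SRF), which binds a DNA element called the CArG box together with coactivators such as myocardin. Cultured fibroblasts also use part of this programme when they turn into myofibroblasts.

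All cells were mouse embryonic fibroblasts of the ICR background, measured at day 7 after infection with retroviral vectors carrying a pool of 48 factors, with heart and muscle regulators such as Myocd, Gata4, Mef2c, Tbx5, Hand2 and Myod1 among them. The measurement was Drop-seq, in which the polyadenylated RNA of a cell is captured on a barcoded bead in a droplet. The labels describe 37 technical replicates of 1 biological replicate, every one with the same pool. They do not say which factors a single cell received, so the cells compared here are told apart only by their own transcripts. No untreated cells were analysed here, so smooth muscle-like cells that were already present in the fibroblast culture and cells that arose after infection cannot be told apart. Delivered and endogenous transcripts of a pool factor give the same counts, and the 5 microRNAs of the pool, the smooth muscle regulator Mir145a among them, were not analysed here.

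Technical replicates 4 and 6 shared 59 cell barcodes and were joined as 1 library, while no other pair shared more than 4, so that 36 libraries were compared. Libraries held between 70 and 548 cells, and between 637680 and 7921171 counts. By the names in the labels they fall into 3 series, JD with 163 members, PZ47-PZ48 with 188 and PZ58 with 77. Members had a median of 11428 counts per cell, and the other cells had a median of 8491. Each member was therefore matched with 3 other cells of the same library that were nearest in total counts. These 1284 matched cells had a median of 11388 counts. At this equal depth the members had a median of 3886 detected genes and the matched cells 4188. All libraries come from 1 culture, so that every p-value below measures the technical spread between libraries only.

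The marker sum had a median of 8009 CPM in members and 298 CPM in matched cells. Between files, the lowest sum that still made a cell a member ranged from 2623 to 8746 CPM, with a median of 4372 CPM. The highest sum just outside the cut ranged from 2275 to 7622 CPM, with a median of 3802 CPM. Of all cells, 123 lay within 10% of the cut of their file, 74 of them inside and 49 outside, and 438 other cells reached at least 50% of it. All 4 markers were detected in 339 members, 3 of them in 73, 2 in 15 and 1 in 1 member. Among matched cells, 110 of 1284 had all 4. Most members thus had counts of the whole set, although a single abundant gene could have met the rule. This is a description only, because the same counts chose the members.

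Myh11, the heavy chain of smooth muscle myosin, was summed to 1332 CPM over the members and 53.5 CPM over the matched cells, and 89.7% and 21.9% of these cells had a count. Actg2, the enteric smooth muscle actin, gave 5244 and 211 CPM, with a count in 95.8% and 53.5% of cells. Cnn1, a calponin that binds actin and slows the myosin ATPase, gave 1675 and 198 CPM, with a count in 97.7% and 62.5%. Mylk, myosin light chain kinase, gave 1653 and 130 CPM, with a count in 92.1% and 46.1%. Droplets also capture free RNA. In 29 cells with counts of at least 6 macrophage genes, a type that should lack these transcripts, the share with a count was 3.45% for Myh11, 48.3% for Actg2, 34.5% for Cnn1 and 37.9% for Mylk, at a median depth of 6723 counts. None of these 29 cells was a member. The shares of matched cells with Actg2 and Mylk lay inside the exact intervals of these 29 cells (29.4 to 67.5% and 20.7 to 57.7%), and those with Myh11 and Cnn1 lay above theirs (upper bounds of 17.8% and 54.3%), at a higher depth. Summed levels of Actg2 and Mylk were 211 and 130 CPM in matched cells and 74.9 and 53.5 CPM in the macrophage-type cells. These 29 cells were pooled over libraries, and the part of free RNA in the counts was not tested.

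To test the markers without the rule that used them, the cells were chosen again by 3 of the markers and the left-out marker was compared with cells matched on depth. Myh11 in cells chosen by the other 3 markers had 282 CPM in the lowest library, 1106 CPM in the median library and 2202 CPM in the highest, against 8.48, 55.3 and 235 CPM in the matched cells. Every library of the chosen cells was above every library of matched cells for Myh11. It rose by 4.31 ± 0.16 (SE) on the log2 scale. The adjusted p was 3.1e-29 (quasi-likelihood test of edgeR, Benjamini-Hochberg adjustment over all genes).

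Left-out Actg2 had 1134, 4405 and 9816 CPM in the lowest, median and highest library, against 34.7, 242 and 807 CPM, again without overlap. Its log2 fold change was 4.23 ± 0.17 (edgeR, adjusted p 1e-27). Left-out Mylk had 461, 1292 and 2809 CPM against 33.3, 94.5 and 453 CPM, so that the groups did not overlap. Its log2 fold change was 3.50 ± 0.15 (edgeR, adjusted p 2.1e-27). Left-out Cnn1 had 426, 1420 and 3317 CPM against 112, 194 and 611 CPM, and here the lowest chosen library lay inside the range of the matched cells. Its log2 fold change was 2.89 ± 0.11 (edgeR, adjusted p 3.6e-30). Each of the 4 left-out markers was higher in 36 of 36 libraries. In the comparisons without Myh11, Actg2, Cnn1 and Mylk, 7.51%, 7.76%, 7.16% and 8.01% of all genes tested were called higher. In the JD, PZ47-PZ48 and PZ58 libraries taken alone, left-out Myh11 had log2 fold changes of 4.42, 4.18 and 4.37, and left-out Actg2 had 4.22, 4.30 and 4.09.

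**Figure D1:**
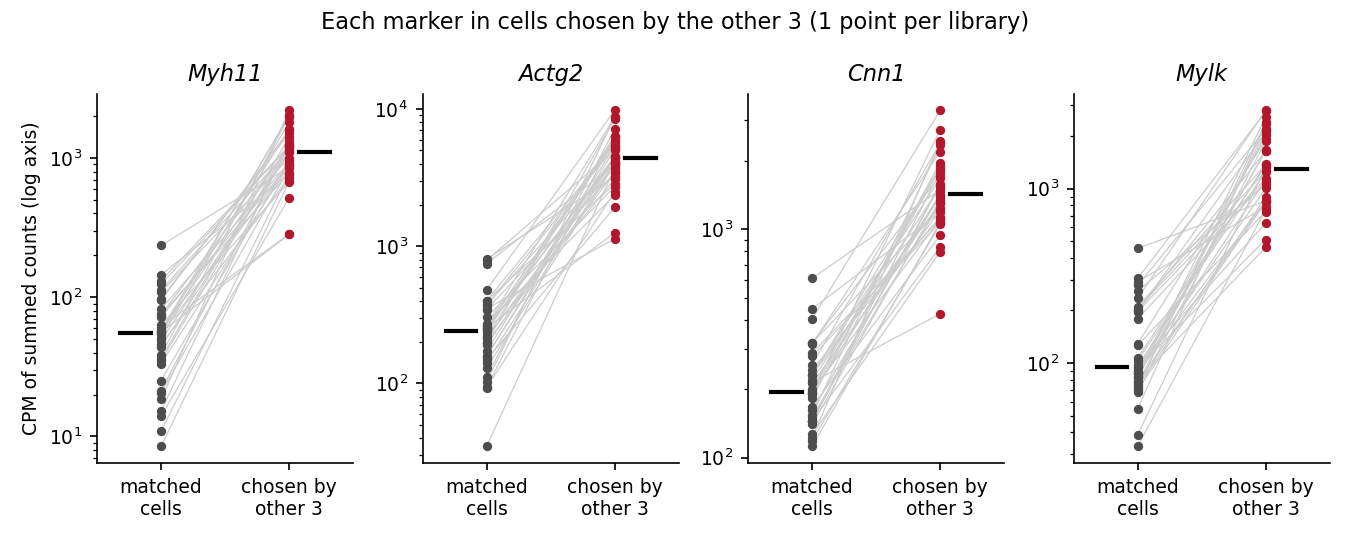
CPM of summed counts (log axis) of Myh11, Actg2, Cnn1 and Mylk in cells chosen by the other 3 markers and in cells matched on total counts. Each point is 1 of 36 libraries, lines join the same library, and black bars are medians, and every line rises from the matched to the chosen cells.

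Of 14544 genes tested outside the rule, 1178 were higher in the members (8.10%) and 2410 were lower (16.6%), with a median log2 fold change of -0.13 over all genes. The surplus of lower genes depended on the matching. With 1 matched cell per member in place of 3, 957 genes were higher (7.17%) and 1055 were lower (7.91%), of which 905 and 1045 were also called with 3 matched cells. Lower genes described below with a fold change are therefore given with the value from 1 matched cell per member as well, and calls lost there are named list by list. Within the JD, PZ47-PZ48 and PZ58 libraries, 593, 672 and 389 genes were higher and 814, 1029 and 303 lower. No matched-cell library overlapped the members in 4 genes that were higher in members (0.0275% of genes tested), namely Acta2, Tpm2, Vcl and Ap3m1, and in 0 genes that were lower (0%). Ap3m1 overlaps Vcl in the genome, and without a stated strand setting their counts cannot be told apart.

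The thin filament genes rose together. All 15 genes of this list passed the test in the upward direction, with a median log2 fold change of 1.11, against 8.10% of all genes. Acta2, the vascular smooth muscle actin (chr19:34241090-34255590, minus strand, GRCm38), had 9178 CPM in the lowest, 15255 CPM in the median and 25969 CPM in the highest library of members, and 2348, 4473 and 7272 CPM in matched cells. The lowest library of members was above the highest library of matched cells. The log2 fold change of Acta2 was 1.80 ± 0.06 (edgeR, adjusted p 1.9e-30), and it was 1.78, 1.80 and 1.87 in the JD, PZ47-PZ48 and PZ58 libraries. Unlike Myh11, Acta2 was no marker of presence, since 100% of members and 99.0% of matched cells had a count, as had all 29 macrophage-type cells.

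Tagln, transgelin, which binds and bundles actin (chr9:45929619-45936058, minus strand), had 2676, 5488 and 9636 CPM in members and 962, 1723 and 2795 CPM in matched cells. It was higher in 36 of 36 libraries although the ranges met, by 1.75 ± 0.07 (edgeR, adjusted p 1.3e-29). Tpm2, beta-tropomyosin, which winds along the actin filament, had 2602, 3877 and 6010 CPM against 843, 1285 and 2013 CPM, without overlap, and a log2 fold change of 1.59 ± 0.06. Lmod1, leiomodin, which nucleates actin filaments in smooth muscle (chr1:135324807-135368065, plus strand), had 189, 662 and 1116 CPM against 82.4, 137 and 287 CPM. The rise held in 35 of 36 libraries and was 2.25 ± 0.10 (edgeR, adjusted p 8.1e-27). Csrp1, a LIM protein of actin bundles, rose by 1.82 ± 0.08. The remaining thin filament genes that rose were Tagln2, Cald1, Tpm1, Tpm4, Cnn2, Cnn3, Actn1, Smtn, Flna and Csrp2.

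**Figure D2:**
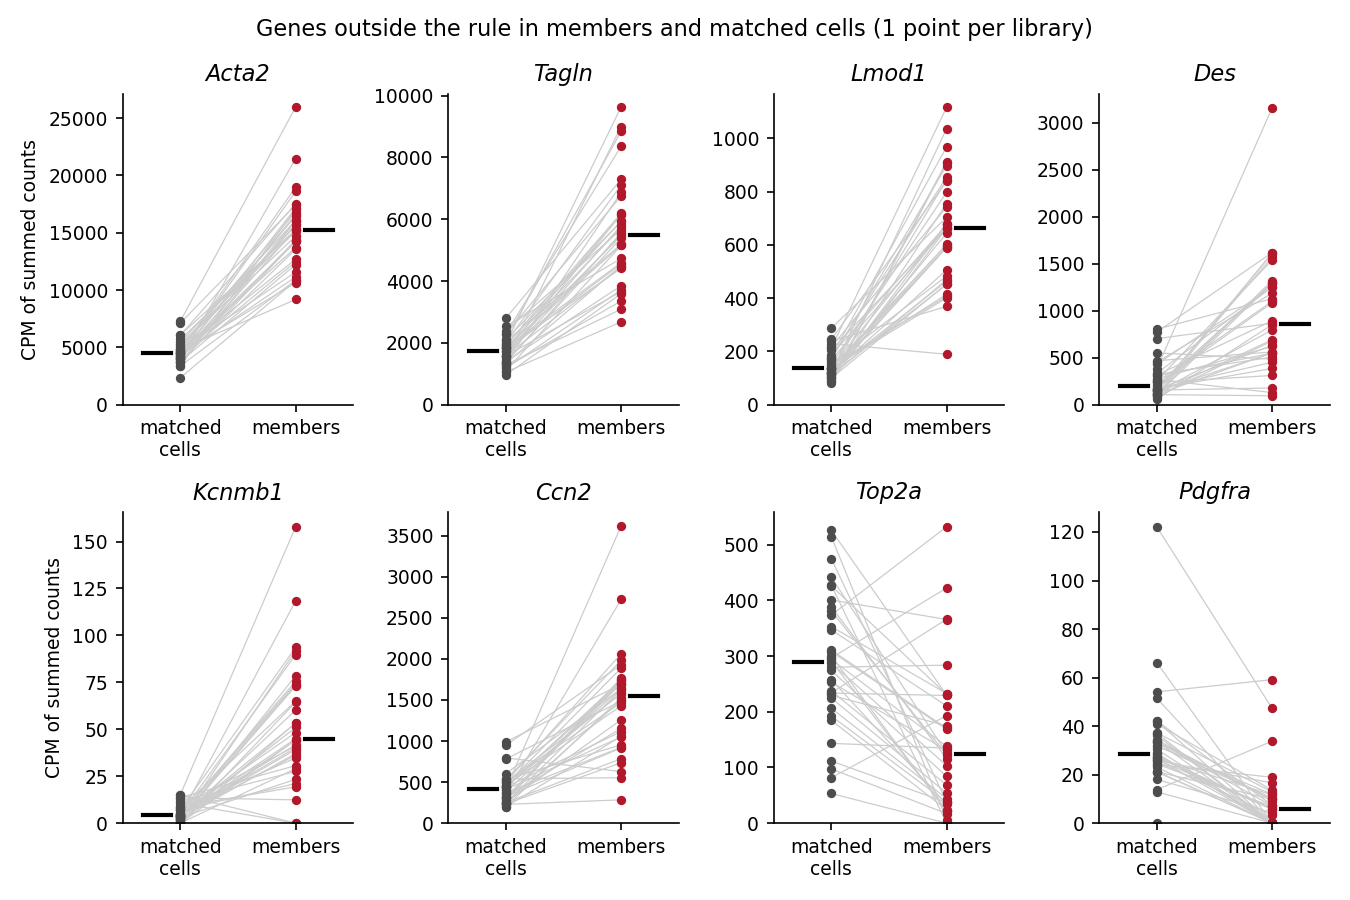
CPM of summed counts of 8 genes outside the rule in members and in matched cells. Each point is 1 of 36 libraries, lines join the same library and black bars are medians. Acta2 separates the groups completely, Tagln, Lmod1, Des, Kcnmb1 and Ccn2 are higher in 33 to 36 libraries, and Top2a and Pdgfra lie lower in most libraries.

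Genes that set myosin activity moved less. Of 16, 12 rose and 1 fell, beside 8.10% and 16.6% of all genes, and 3 did not pass the test. The median log2 fold change was 0.25. Myl9, the regulatory light chain that Mylk phosphorylates (chr2:156775420-156781658, plus strand), had 1277, 2609 and 3562 CPM in the lowest, median and highest library of members and 481, 771 and 1397 CPM in matched cells. It was higher in 36 of 36 libraries, by 1.76 ± 0.06 (edgeR, adjusted p 4.9e-30). Ppp1r14a, the inhibitor of myosin phosphatase known as CPI-17, had 0, 23.6 and 79.7 CPM against 0, 5.77 and 32.0 CPM. A rise in 34 libraries amounted to 2.19 ± 0.20 (edgeR, adjusted p 1.1e-13). Ppp1r12a, the targeting subunit of that phosphatase, rose by 0.75 ± 0.06 and Rock2, a kinase that inhibits it, by 0.60 ± 0.07. Myl12b fell, and Myh10, the non-muscle myosin IIB heavy chain, Prkg1 and Pde5a did not pass the test. Mprip was no longer called with 1 matched cell per member.

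All 22 genes that anchor filaments at dense bodies and adhesions rose, beside 8.10% of all genes, with a median log2 fold change of 1.05. Of these, 21, all but Itga7, were also called with 1 matched cell per member. Itga5, the fibronectin receptor subunit, had 0, 344 and 734 CPM in members and 40.9, 73.9 and 158 CPM in matched cells, and was higher in 35 libraries by 2.24 ± 0.10 (edgeR, adjusted p 4.4e-26). Vcl, vinculin (chr14:20929398-21033676, plus strand), had 372, 679 and 1686 CPM against 160, 266 and 363 CPM, without overlap, and a log2 fold change of 1.42 ± 0.08. Synpo2, which binds actin at dense bodies, rose by 2.57 ± 0.22, and 26.6% of members had a count against 7.94% of matched cells. Lpp, a LIM protein of adhesions, was 2.21-fold higher, and Ilk, integrin-linked kinase, rose by 0.89 ± 0.06 on the log2 scale.

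Des, desmin, the intermediate filament of muscle cells (chr1:75360329-75368579, plus strand), had 94.6, 858 and 3154 CPM in members and 59.9, 198 and 802 CPM in matched cells. The ranges overlapped, and Des was higher in 33 of 36 libraries, by 1.97 ± 0.18 (edgeR, adjusted p 1.4e-13). Its cell-to-cell spread was wide, with a count in 316 of 428 members (73.8%) and in 44.0% of matched cells. The median member was at 380 CPM and the median matched cell at 0 CPM. The JD, PZ47-PZ48 and PZ58 libraries taken alone gave 1.54, 2.36 and 2.18.

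The promoters of the genes that rose together were searched for the CArG box in the 250 bases before the transcription start, in RefSeq sequences of GRCm38.p6. Only its exact form was counted, which is CC, a core of A and T alone, and GG. Boxes with another base in the core, or outside these 250 bases, were not counted. The element reads alike on both strands, and 1.47% of all 32851 promoters held it. In the lists below a gene counted once if any of its promoter entries held the element. The list counts are therefore in another unit than the 1.47%. Of the thin filament genes 13 had a promoter entry and 1 held the element, of the myosin regulators 15 and 2, of the anchoring genes 18 and 2, and of the channel and receptor genes 13 and 0. Promoters of Cnn1 and Mylk held none, and Acta2 was not among the genes with a match. Myh11, Actg2 and Tagln had no promoter entry and were not searched. Of the YAP targets 10 had an entry, of the matrix genes 14, of the fibroblast genes 11 and of the G2/M genes 13, and none of these held it. The element was not restricted to genes that rose. In the remaining lists it was found in Tyms and Mesp1, which were called lower, in Acta1 and Myl7, which were called higher, and in Actc1, Myl3 and Egr2, which did not pass the test. Stretches are shown for genes of the contractile and SRF lists that rose and for both genes called lower, and the capitals mark the element.
Myl9 (chr2:156775273-156775342, plus strand): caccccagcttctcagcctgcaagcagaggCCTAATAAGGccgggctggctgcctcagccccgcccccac
Myl6 (chr10:128493020-128493089, minus strand): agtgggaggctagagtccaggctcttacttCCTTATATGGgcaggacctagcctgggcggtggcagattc
Cnn2 (chr10:79988514-79988583, plus strand): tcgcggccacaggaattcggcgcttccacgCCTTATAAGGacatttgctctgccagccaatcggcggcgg
Vcl (chr14:20929148-20929210, plus strand): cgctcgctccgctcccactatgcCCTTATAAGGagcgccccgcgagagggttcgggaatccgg
Ldb3 (chr14:34588677-34588746, minus strand): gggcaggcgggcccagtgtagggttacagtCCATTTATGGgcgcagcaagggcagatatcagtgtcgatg
Srf (chr17:46556205-46556274, minus strand): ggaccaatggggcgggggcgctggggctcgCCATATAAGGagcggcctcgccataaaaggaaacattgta
Tyms (chr5:30073717-30073786, minus strand): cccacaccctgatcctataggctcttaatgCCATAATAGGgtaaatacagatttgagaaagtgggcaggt
Mesp1 (chr7:79793689-79793758, minus strand): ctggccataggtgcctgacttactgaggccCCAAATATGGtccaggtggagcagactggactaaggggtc
The element starts 161 bases before the start of Myl9, 50 before that of Myl6, 56 before that of Cnn2 and 227 before that of Vcl. The promoter of Srf, whose product binds the element, held it at 82 and at 62 bases before the start. A match of letters is a description of the sequence and no evidence of binding in these cells.

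Ion channels, receptors and relaxation pathway genes split. Of 16, 8 rose and 2 fell, beside 8.10% and 16.6% of all genes, and 6 did not pass the test. The median log2 fold change was 0.67. Kcnmb1, the smooth muscle subunit that raises the calcium sensitivity of the BK potassium channel (chr11:33963013-33973641, plus strand), had 0, 44.7 and 158 CPM in the lowest, median and highest library of members, against 0, 4.17 and 15.3 CPM. It was higher in 33 of 36 libraries, by 3.43 ± 0.21 (edgeR, adjusted p 6.5e-20). A count was found in 157 members (36.7%, 95% exact binomial interval 32.1 to 41.4) and in 71 matched cells (5.53%, 4.34 to 6.92), intervals that cover counting error only. Kcnma1, the pore of the same channel, was called lower, a call lost with 1 matched cell per member. Both subunits of the nitric oxide receptor rose, Gucy1a1 by 1.63 ± 0.29 and Gucy1b1 by 1.36 ± 0.18, as did Mrvi1, a partner of cGMP kinase at calcium stores, by 1.52 ± 0.12. Aoc3, an amine oxidase of the smooth muscle surface, rose by 2.09 ± 0.33, and Ednra, an endothelin receptor, fell by 1.70 ± 0.30 (1.69 with 1 matched cell per member). Cacna1c, the pore of the L-type calcium channel, did not pass the test, with -0.05 ± 0.17.

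**Figure D3:**
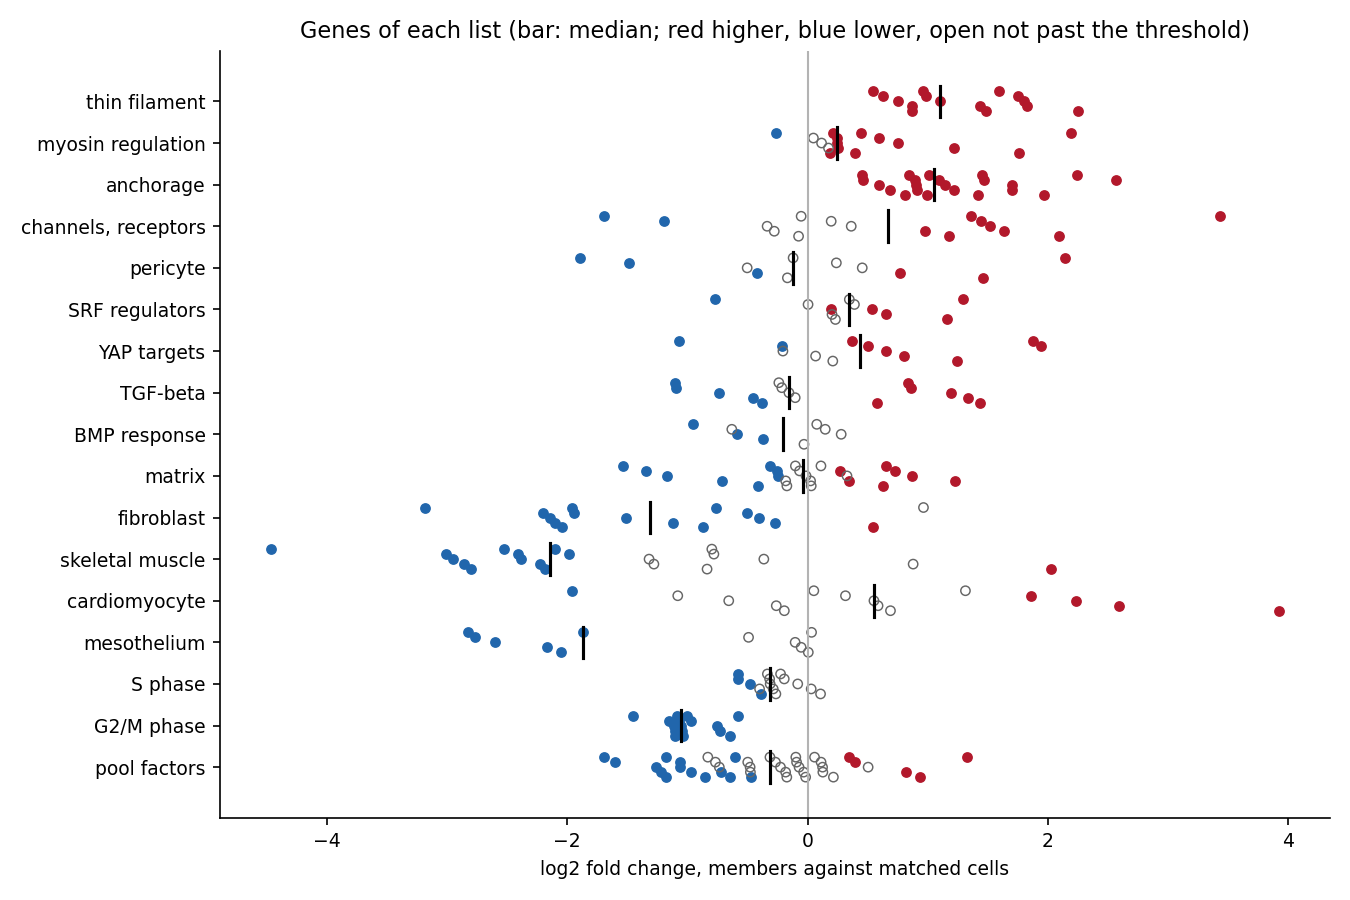
Log2 fold change of members against matched cells for the genes of each list that passed the filter of 20 counts. Black bars are list medians, red genes were higher, blue genes lower and open ones did not pass the test. The thin filament and anchorage lists lie wholly to the right of 0 and the G2/M list wholly to the left.

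Across the whole rank order, Acta2 and Lmod1 followed the marker sum through the cut. Acta2 was at 20894 CPM in the 67 cells of the top 1% of their file, at 14664 CPM in the next 127 members and at 13098 CPM in the 234 members nearest to the cut. It was at 10681 CPM in the 410 cells ranked just below, at 7527 and 4860 CPM further down and at 2556 CPM in the lower 50%. Over the same 7 bins Lmod1 went from 949 to 560 CPM within the members and from 437 to 72.4 CPM outside them. Des and Synpo2 were steeper at the top, with 1989, 1007 and 661 CPM for Des and 112, 45.2 and 19.7 CPM for Synpo2 within the members. Pdgfra, a receptor of fibroblasts, ran the other way, at 1.64, 5.02 and 10.0 CPM within the members and up to 39.0 CPM in the lower 50%. Dcn, another fibroblast gene, did not, at 352, 117 and 137 CPM within the members and 313 CPM in the lower 50%. These bins share their libraries and are a description without a test, and the median depth of their cells fell from 12732 counts in the top 1% to 7986 in the cells ranked from 25 to 50%.

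**Figure D4:**
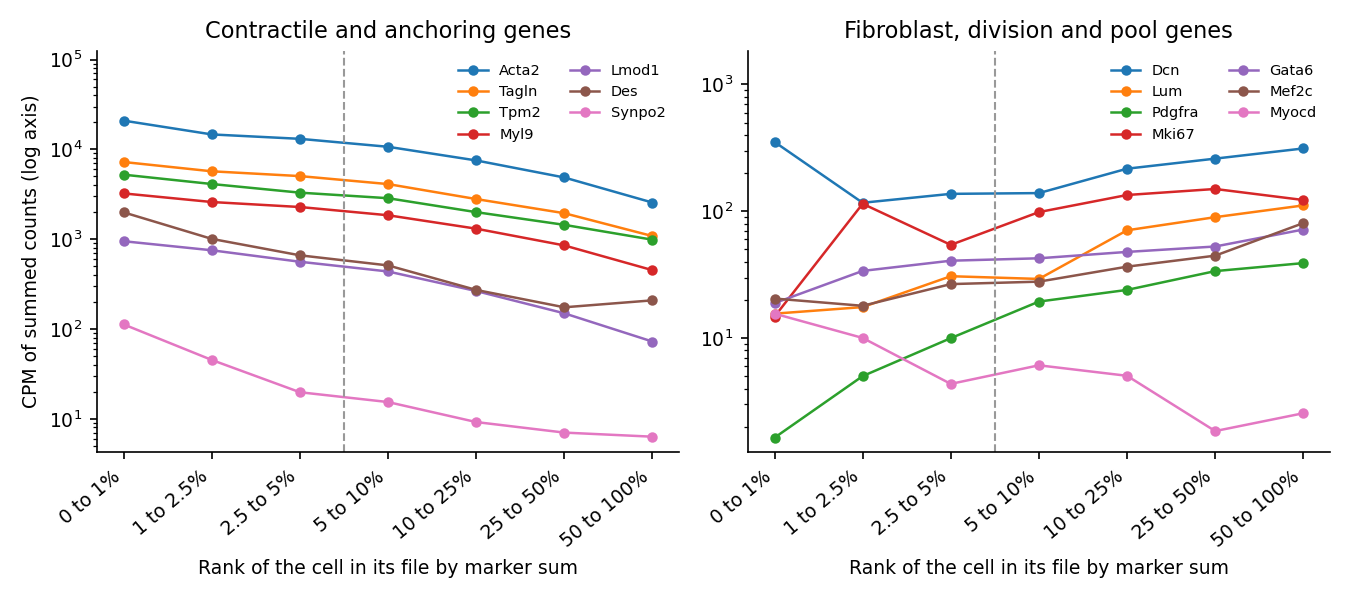
CPM of summed counts (log axis) of genes outside the rule over 7 bins of cells ranked within their file by the marker sum, with the cut for members at the dashed line. Acta2, Tagln, Lmod1, Myl9, Synpo2 and Tpm2 decline from left to right through every bin, and Des declines to 174 CPM and is at 208 CPM in the lower 50%. Pdgfra rises through every bin, Lum rises except for 30.8 and 29.3 CPM on either side of the cut, and Dcn and Mki67 have no steady course.

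Regulators of the SRF programme were measured beside their targets. Of 11 genes that passed the filter, 5 rose and 1 fell, beside 8.10% and 16.6% of all genes. The median log2 fold change was 0.35. Srf had 0, 44.6 and 84.6 CPM in the lowest, median and highest library of members and 10.7, 28.7 and 51.7 CPM in matched cells, and was higher in 27 of 36 libraries, by 0.65 ± 0.12 (edgeR, adjusted p 4.1e-05). Foxf1, a forkhead factor of visceral smooth muscle, was higher in 20 libraries and lower in 14, by 1.29 ± 0.33 (edgeR, adjusted p 0.0026). Klf4, which represses smooth muscle genes, had 0, 32.0 and 88.7 CPM against 21.3, 66.1 and 114 CPM. It fell in 33 of 36 libraries, by 0.77 ± 0.12 (edgeR, adjusted p 1.5e-06), and by 0.85 with 1 matched cell per member. The SRF coactivators Mrtfa and Mrtfb did not pass the test, and Jag1 and Foxf2 were no longer called with 1 matched cell per member.

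Targets of YAP and TEAD, which respond to stretch and stiff substrates, were higher for 7 of 12 genes and lower for 2. Their median was 0.43, and of all genes 8.10% were higher and 16.6% lower. Ccn2, a secreted matricellular protein, had 284, 1550 and 3617 CPM in members and 199, 413 and 990 CPM in matched cells, and was higher in 35 libraries by 1.87 ± 0.12 (edgeR, adjusted p 5.2e-20). Ankrd1, a muscle ankyrin repeat protein, had 280, 972 and 3248 CPM against 61.7, 213 and 913 CPM, with a log2 fold change of 1.94 ± 0.16. Crim1 rose by 1.24 ± 0.07 and Axl by 0.80 ± 0.07. Both calls of lower genes, Amotl1 and Nt5e, and the call of Amotl2 as higher were lost with 1 matched cell per member.

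The TGF-beta list moved in both directions, with 6 of 15 genes higher and 5 lower, beside 8.10% and 16.6% of all genes. Among ligands, Tgfb3 rose by 1.43 ± 0.12 (404 against 180 CPM in the median library) and Inhba by 1.19 ± 0.13 (572 against 274 CPM). The receptor Tgfbr2 had 0, 40.5 and 83.3 CPM in members against 45.8, 101 and 140 CPM, and fell in 33 libraries to 0.468 times the matched level (edgeR, adjusted p 3.9e-12). With 1 matched cell per member its log2 fold change was -0.94. Pmepa1, a feedback inhibitor of the pathway, fell in 34 libraries by 0.73 ± 0.07 (0.62 with 1 matched cell per member). The calls of Tgfbr1 and Postn as lower and of Il11 as higher were lost there. Of 8 BMP response genes 3 fell and none rose, namely Id1 by 0.59 ± 0.12, Id3 by 0.37 ± 0.10 and Atoh8 by 0.96 ± 0.25. With 1 matched cell per member these were 0.57, 0.38 and 1.11 lower, and each was also called. In the PZ58 libraries Id1 changed by -0.06 only.

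Matrix genes were divided, with 7 of 24 higher and 8 lower, beside 8.10% and 16.6% of all genes. Basement membrane collagen rose, Col4a1 by 0.86 ± 0.07 and Col4a2 by 0.73 ± 0.08, although these neighbours overlap and reads at the overlap cannot be assigned. Loxl2, a collagen crosslinker, had 632, 1641 and 3285 CPM in members and 448, 665 and 1250 CPM in matched cells and was higher in 36 of 36 libraries, by 1.23 ± 0.08 (edgeR, adjusted p 7e-19). Thbs1, thrombospondin, rose by 0.65 ± 0.07. Eln, elastin, fell by 1.54 ± 0.30 (1.30 with 1 matched cell per member) and was lower in 33 of 36 libraries. Col1a2, Col3a1, Col5a1, Fbln1, Mfap4 and Bgn fell too. Col1a1 was called lower and Fbln5 higher with 3 matched cells only.

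Most fibroblast markers went the opposite way to the contractile genes. Of 16, 14 fell, 1 (Thy1) rose and 1 did not pass the test, with a median log2 fold change of -1.31 against 16.6% of all genes called lower. Calls of Prrx1 and Col6a3 were lost with 1 matched cell per member. Pdgfra had 0, 5.72 and 59.1 CPM in the lowest, median and highest library of members and 0, 28.7 and 122 CPM in matched cells. It was lower in 33 libraries, by 1.96 ± 0.23 (edgeR, adjusted p 9.5e-10), and by 1.85 with 1 matched cell per member. Lum, a small proteoglycan, had 0, 17.0 and 124 CPM against 12.7, 91.7 and 258 CPM, and fell by 1.94 ± 0.22 (1.84 with 1 matched cell per member). Ly6a, the surface antigen Sca-1, fell by 2.11 ± 0.20 and Dpt, dermatopontin, by 2.05 ± 0.27, against 1.89 and 1.29 with 1 matched cell per member. The fibroblast list as a sum was 842 to 3122 CPM in libraries of members and 1582 to 3365 CPM in matched cells, lower in the members in all but 3 libraries.

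Pericytes, contractile cells of small vessels, share markers with smooth muscle. Of 11 such markers 3 rose and 3 fell, beside 8.10% and 16.6% of all genes, with a median of -0.12. Mcam, the adhesion molecule CD146, had 40.8, 142 and 252 CPM in members and 9.50, 34.5 and 73.2 CPM in matched cells, and rose by 2.14 ± 0.12 (edgeR, adjusted p 3e-22). Rgs5 and Rgs4, inhibitors of G protein signalling, rose as well. Pdgfrb, a receptor on this list, fell by 0.42 ± 0.10 and Anpep by 1.48 ± 0.32 (0.34 and 1.28 with 1 matched cell per member). The call of Ndufa4l2 as lower was lost with 1 matched cell per member. Cspg4, Kcnj8, Abcc9, Notch3 and Cox4i2 did not pass the test, and Higd1b had no count in the members.

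Skeletal muscle genes that passed the test were lower except for Acta1, beside 16.6% of all genes called lower. Of 20, 12 fell, 1 (Acta1) rose and 7 did not pass the test, among them Ckm at 0.88 ± 0.71, with a median log2 fold change of -2.14. Calls of Mylpf and Mymx as lower were lost with 1 matched cell per member. Myog, myogenin, was counted 6 times in members and 608 times in matched cells, with a count in 1.40% of members and 4.98% of matched cells. Its log2 fold change was -4.47 ± 0.39 (edgeR, adjusted p 8.8e-14) and -3.84 with 1 matched cell per member. Acta1, skeletal actin, had 37.8, 483 and 8529 CPM in members and 10.4, 105 and 1078 CPM in matched cells, and rose in 31 of 36 libraries by 2.02 ± 0.28 (edgeR, adjusted p 7.9e-08). The list as a sum was between 172 and 13963 CPM in members and between 75.5 and 5069 CPM in matched cells, and higher in members in 22 libraries, a sum to which Acta1 belongs. By this sum 14.5% of members and 4.91% of matched cells were in the top 5% of their file.

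Of 15 cardiomyocyte genes 4 rose and 1 fell, beside 8.10% and 16.6% of all genes, and 10 did not pass the test. Nppb and Nppa, the natriuretic peptides, rose by 3.93 ± 0.36 and 2.59 ± 0.38 (edgeR, adjusted p 8.2e-13 and 4.9e-07). Nppb had 269 counts in members and 48 in matched cells and was higher in 25 libraries, and Nppa overlaps Gm13054, which rose with it. Myh6, the atrial myosin heavy chain, was called higher by 2.23 ± 0.67 (edgeR, adjusted p 0.012), but was higher in 8 libraries and lower in 10. Myl7 was called higher by 1.86 ± 0.58 and changed to -0.59 without cells in the top 5% of the skeletal, mesothelial, glial or macrophage lists. The sarcomeric genes Tnnt2, Actc1, Tnni3, Myl2 and Mybpc3 did not pass the test.

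Of 11 mesothelial genes 6 fell and none rose, beside 16.6% and 8.10% of all genes, with a median of -1.87. Gpm6a was under the filter with 1 matched cell per member. Msln, mesothelin, had a median library of 0 CPM in members and 21.4 CPM in matched cells and fell by 2.77 ± 0.38 (2.41 with 1 matched cell per member). Macrophage genes were called lower for 6 of 9 and glial genes for 5 of 6, and none of these 11 genes was called with 1 matched cell per member, where several were under the filter. The macrophage genes Adgre1, Tyrobp and C1qb and the glial genes Sox10 and Foxd3 had no count in the members. Having 0 of 428 members with a Sox10 count allows a share of up to 0.858% of members with a count (exact interval), which limits detection and not expression. The macrophage sum was 0 to 45.5 CPM in libraries of members. The endothelial sum was not lower in members, with 0, 37.9 and 310 CPM in the lowest, median and highest library against 9.52, 35.2 and 145 CPM, and 7.48% of members and 4.83% of matched cells were in its top 5%. Of 6 endothelial genes Emcn rose by 1.54 ± 0.39 (edgeR, adjusted p 0.0021) and Pecam1 fell, both calls lost with 1 matched cell per member, while Cdh5, Tie1 and Cldn5 had no count in the members. In all, 93 members (21.7%) and 221 matched cells (17.2%) were in the top 5% of their file for the skeletal, mesothelial, glial or macrophage list. Each list takes 5% of the cells of every file whatever their type, so these shares do not count cells of other types. The skeletal list, in which Acta1 alone was called higher, held 62 of these members. Without such cells 964 genes were higher and 2213 lower.

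All 16 genes of G2 and M phase fell, beside 16.6% of all genes, with a median log2 fold change of -1.05. Top2a, the topoisomerase that untangles replicated DNA, had 0, 124 and 532 CPM in the lowest, median and highest library of members and 53.3, 290 and 526 CPM in matched cells. The ranges overlapped, and Top2a was lower in 31 of 36 libraries, by 1.11 ± 0.17 (edgeR, adjusted p 5.4e-07). The JD, PZ47-PZ48 and PZ58 libraries gave changes of -0.68, -1.76 and -1.04. Cenpf, a kinetochore protein, fell by 1.46 ± 0.18, Cenpe, a mitotic kinesin, by 1.15 ± 0.19 and Birc5, survivin, by 1.00 ± 0.17. With 1 matched cell per member Top2a, Cenpf, Cenpe and Birc5 were lower by 1.08, 1.16, 1.08 and 0.96. Of these 16 calls, Ccnb1 alone was lost with 1 matched cell per member. S phase genes fell for 4 of 15, beside 16.6% of all genes, with a median of -0.31. Among them Tyms fell by 0.58 ± 0.14 (0.61 with 1 matched cell per member), and the calls of Rrm1 and Uhrf1 were lost with 1 matched cell per member. In the sum over the G2/M list, members were higher in 4 of 36 libraries, with 54.4 to 2839 CPM against 490 to 3633 CPM.

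Of 10 immediate early genes 4 fell and 1 rose, beside 16.6% and 8.10% of all genes. Fos fell by 0.90 ± 0.14 and Egr1 by 0.70 ± 0.12 (0.78 and 0.69 with 1 matched cell per member). The calls of Fosb and Ier2 as lower and of Dusp1 as higher were lost with 1 matched cell per member. Among p53 response genes 2 of 10 were higher and 3 lower, of which Sesn2 was lost. Of 7 mitochondrial genes that passed the filter 5 were higher, mt-Cytb by 0.31 ± 0.05. The median mitochondrial share was 0.593% in members and 0.525% in matched cells.

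The pool itself was examined because the rule used none of its genes. Of 41 factors that passed the filter, 5 were higher in members (Lbh, Smad4, Myocd, Tbx2 and Nr2f2) and 14 were lower. Of all genes tested, 8.10% were higher and 16.6% lower. Myocd, myocardin, the SRF coactivator that drives smooth muscle genes (chr11:65176561-65269989, minus strand), had 60 counts in members and 74 in 3 times as many matched cells. By library it had 0, 6.08 and 33.7 CPM in members and 0, 2.28 and 11.3 CPM in matched cells, so that the ranges overlapped. It was higher in 22 libraries and lower in 11, by 1.32 ± 0.38 (edgeR, adjusted p 0.007), and with 1 matched cell per member by 1.31 (edgeR, adjusted p 0.044). JD, PZ47-PZ48 and PZ58 libraries gave 1.75, 1.00 and 0.78.

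A Myocd count was found in 37 of 428 members (8.64%, 95% exact binomial interval 6.16 to 11.7), in 45 of 1284 matched cells (3.50%, 2.57 to 4.66) and in 0 of the 29 macrophage-type cells (upper bound 11.9%). That bound lies above both shares, so these 29 cells cannot show whether free RNA held Myocd. The intervals given for Myocd treat each cell as a separate draw and cover counting error only. Thinned to 1500 counts per cell, the shares of members and matched cells were 1.40% and 0.389%. Seen from the factor, 37 of 262 cells with Myocd were members (14.1%, 10.1 to 18.9), so that most cells with a Myocd count were not members and most members had no Myocd count. The share of members was 4.71% in 8301 cells without a Myocd count, 12.4% in 194 cells with 1 count and 19.1% in 68 cells with 2 or more. The median depth of these 3 sets also rose, from 8415 to 15911 and 28419 counts, and its part in the shares was not tested.

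**Figure D5:**
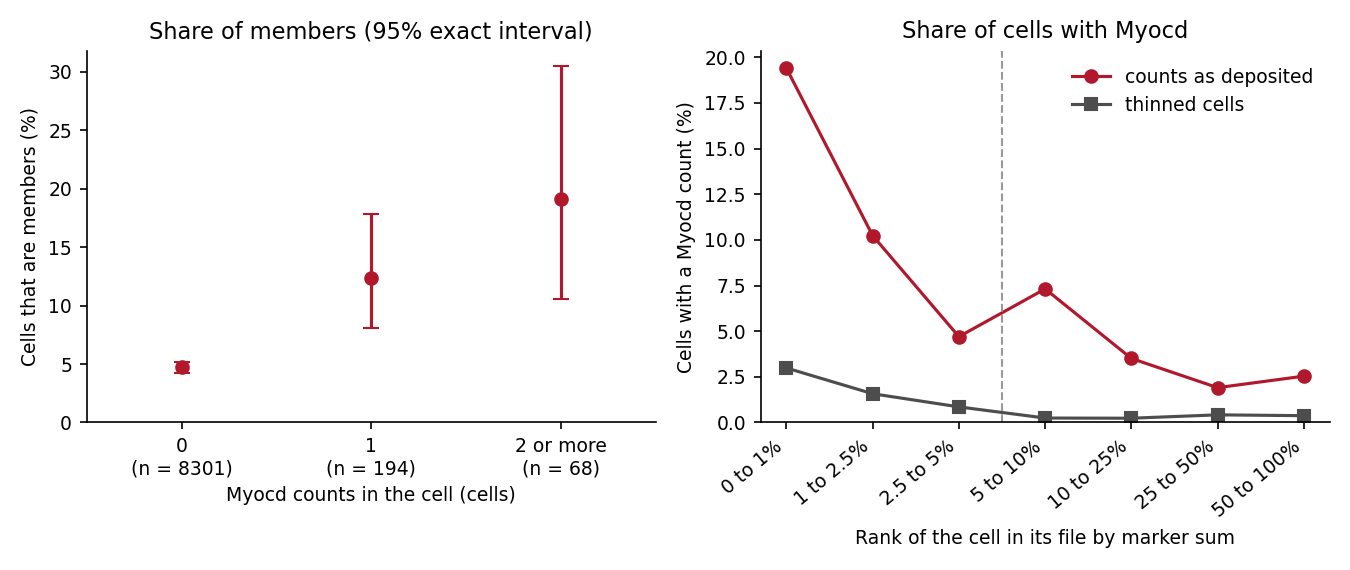
Left, share of cells that are members by the Myocd counts of the cell, with 95% exact binomial intervals that cover counting error only. Right, share of cells with a Myocd count over 7 bins of rank by marker sum, as deposited and after thinning to 1500 counts per cell, with the cut at the dashed line. As deposited, the share is 19.4%, 10.2% and 4.70% in the 3 bins of members and 1.91% to 7.32% below the cut, where the bin next to the cut, at 7.32%, lies above the member bin next to it.

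Tbx2, a T-box repressor, was higher in 24 libraries, by 0.94 ± 0.22 (edgeR, adjusted p 0.00075), and had a count in 18.9% of members and 11.8% of matched cells. Lbh, a cofactor of limb and heart development, had 242, 479 and 711 CPM in members and 122, 282 and 518 CPM in matched cells and was higher in 33 libraries, by 0.82 ± 0.09 (edgeR, adjusted p 5e-10). Among the lower factors, Mef2c, a muscle MADS box factor, had 0, 18.9 and 94.6 CPM against 0, 39.2 and 182 CPM and fell by 1.06 ± 0.20 (0.87 with 1 matched cell per member). Gata6 had 0, 25.6 and 178 CPM against 0, 64.2 and 164 CPM and fell by 0.85 ± 0.20 (0.83 with 1 matched cell per member), while the shares of cells with a count were close, 24.3% and 26.6%. Myod1, the skeletal muscle determinant, fell by 1.69 ± 0.43 and Nkx2-5, a cardiac homeobox factor, by 1.60 ± 0.35 (1.63 and 1.40 with 1 matched cell per member). The calls of E330017L17Rik, Mesp1, Notch1, Hdac4 and Hey1 as lower were lost with 1 matched cell per member. Gata4 (0.50 ± 0.46), Tbx5 (-0.73 ± 0.39), Hand2 (-0.48 ± 0.27) and Isl1 (-0.07 ± 0.43) did not pass the test.

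Members differed in which marker contributed most to their sum. Actg2 contributed most in 308, Mylk in 56, Myh11 in 42 and Cnn1 in 22. Acta2 was at 12702 to 15620 CPM in all 4 of these sets, and Lmod1 at 641 to 941 CPM. Des was at 1083 CPM in cells led by Actg2 and at 606 to 760 CPM in the others. Myocd was at 24.9 CPM in cells led by Mylk, 15.2 in those led by Myh11, 4.96 in those led by Actg2 and 4.36 in those led by Cnn1. These sets were formed from the markers and are given without a test. Within the members, the Spearman correlation between the markers' CPM was 0.35 for Myh11 and Mylk, 0.30 for Actg2 and Cnn1, and 0.09 to 0.16 for the other pairs over 428 cells that share the cut on their sum.

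To see how members vary, 44 members with a Myh11 count were matched in depth with 44 members of the same libraries without one, over 25 libraries. Myh11 is one of the values that chose the members, and a member without it met the rule through the other 3 markers. The split is therefore a description, and nothing is drawn from its test. Of 6451 genes, 5 passed as higher (0.0775%) and 1 as lower (0.0155%) where Myh11 was detected. Ankrd1 was higher by 2.40 ± 0.33 on the log2 scale (586 against 80 counts) and Des by 2.37 ± 0.31 (651 against 91 counts). Sorbs2, an adaptor of the Z-disc and of stress fibres, was higher by 2.14 ± 0.48 (65 against 12 counts). Acta1 was higher by 2.09 ± 0.38 (252 against 131 counts), and Itga5, named after its value was seen, by 1.53 ± 0.33 (223 against 60 counts). Crabp1, a retinoic acid binding protein, was lower by 2.05 ± 0.37 (58 against 342 counts). The members with Myh11 also had the higher marker sum, with a median of 6772 against 4784 CPM, and its part in these differences was not tested.

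Several of the genes with the highest changes were not on any smooth muscle list. Ptprz1, a receptor tyrosine phosphatase of nervous tissue, had 23.8, 92.2 and 228 CPM in the lowest, median and highest library of members and 0, 13.3 and 31.1 CPM in matched cells. All 36 libraries had it higher in members, by 2.99 ± 0.17 (edgeR, adjusted p 8.1e-22). Sh3bgr, an SH3-binding protein of heart and muscle, had 29.7, 110 and 253 CPM against 0, 14.1 and 90.1 CPM, with a log2 fold change of 2.72 ± 0.15. Nptx2, a neuronal pentraxin, rose by 2.80 ± 0.19, and Lims2, PINCH-2, a partner of Ilk at adhesions, by 2.63 ± 0.13. Uts2b, a urotensin-like peptide, had the highest log2 fold change of the genes tested outside the rule, 4.37 ± 0.50 (edgeR, adjusted p 2.8e-09). It rested on 175 counts in members and 12 in matched cells, was higher in 16 libraries and lower in 6, and was at 0 CPM in the median library of both. Asb2, a ubiquitin ligase subunit of muscle, Apol10b, Prnd, Popdc2 and Zdhhc14 rose by 2.45 to 2.81 on the log2 scale. At the other end, Lgr5, Il1rl1, Adamts15, Trim63, Col10a1, Cxcl13, Mb, Gm21738 and Saa3 were lower, with -5.24 for Saa3 and -3.07 to -3.70 for the others. With 1 matched cell per member they ranged from -2.04 to -3.95, and Saa3 was at -2.29, having 3 counts in members and 720 in matched cells.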

How the data were processed

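The deposited files hold raw counts per gene and cell barcode, without normalization, for 37 technical replicates. Per the submitters' processing notes, bcl2fastq 2.17.1.14, STAR 2.5.3a, UMI-tools and featureCounts 1.5.3 were used on mm10. Annotation release, strand setting and cell filter are not given in the sources used here. Tables held 27999 gene rows, 27645 of 27998 Ensembl identifiers had a symbol, and columns of no sample numbered 0. Of 8730 barcodes, 89 copies of a barcode held deeper in another file and 78 that were 1 base from a deeper barcode in their library were removed. The 8563 cells held 119796414 counts, at least 1610 each, and CPM were computed from these. Doublets were not called, and the alternative that drops the deepest 5% of cells stood in for this.

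Members and matched cells of a library were each summed. Genes of 20 or more counts were tested with edgeR 4.0.16 (quasi-likelihood, trended dispersion, TMM scaling) at a Benjamini-Hochberg adjusted p under 0.05, with the library as a block. This pairing comes from the design, since both sums of a library share its cells' preparation. Where an adjusted p is not printed beside a gene said to rise or fall, it was under 0.05 in that test. Exact intervals are Clopper-Pearson at 95%. On simulated counts for the members against matched cells over 14412 genes, 88 of 100 genes changed 2-fold and 100 of 100 changed 4-fold were found, with 28 false calls. The genes changed had 100 or more counts. Whether such counts spread between libraries as the measured counts do was not tested. The share of false calls in the measured data was not tested either.

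Members, lists and tests were chosen with earlier results of these data known. Genes named are the markers, the 15 highest and 10 lowest changes with at least 100 counts and 1 sign in all 3 series, up to 4 genes per list by adjusted p, all pool factors called, the 4 highest and 2 lowest of the Myh11 split, and Myocd, Acta2, Tagln, Des and Lmod1. Other list members named were chosen after their values were seen. Some genes chosen by the rule are counted without being described. GENCODE M21 (GRCm38) gave the positions, and the authors may have counted on another annotation. Of 131 named genes, 40 overlap another counted gene, Tagln, Des, Mylk and Kcnmb1 among them, and such values are uncertain without strand. Alternatives covered scaling, DESeq2 1.42.0, filters, matching, the block, the share of cells, the score, depth, other cell types, barcodes, library series and read class.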

Additional observations from a re-analysis of the deposited data

How the results depend on the processing

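Over 127 named genes and 20 other settings, 2218 of 2494 values kept direction and call, 255 kept direction only and 21 changed sign. The 4 left-out markers kept direction and call in every setting run. The 1178 higher and 2410 lower genes became 593 and 814 with JD libraries alone, 672 and 1029 with PZ47-PZ48, 389 and 303 with PZ58, and 482 and 550 with the libraries over 100 CPM of Rps27a. These 4 settings use fewer libraries. The higher count was 741 with the top 2.5% of cells, and the lower count was 1055 with 1 matched cell per member. Without the replicate block they were 1178 and 2213. In the Myh11 split, the 5 higher genes became 3 with at least 100 counts and 21 with no replicate block, and the 1 lower gene became 7 with no replicate block and 2 without the deepest 5% of cells. The share of members with Myocd was 1.40% after thinning. DESeq2 turned genes with few or no counts in members positive, Ctss to 0.75, Fcer1g to 0.70, Gfra3 to 0.18, Pecam1 to 0.84, Saa3 to 0.63, Sox10 to 0.75 and Tyrobp to 0.93, with standard errors near 2.92. Fabp7 (0.0902), Hey1 (0.36), Rrm1 (0.0890), Tcf3 (0.15), mt-Nd5 (-0.0357) and mt-Nd6 (-0.0764) changed sign in PZ58 alone. Hey1 (0.11), Rrm1 (0.29), Tyms (0.12), mt-Nd1 (-0.0209), mt-Nd5 (-0.0037) and mt-Nd6 (-0.0890) did so in the libraries high in Rps27a, Ier2 (0.0466) in PZ47-PZ48 and Myl7 (-0.59) without cells of other types. The cause was not tested. Depth limits factors and markers with few counts per cell, where a missing count does not show absence.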
